A study of Canis lupus familiaris with 4 samples.

Results

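Cell cycle and DNA replication genes were compared between MDCK cells carrying E2-2 and control cells of the same line. The list held 60 genes of replication, the cyclin-dependent kinases, the checkpoints and mitosis. A gene was kept when clones annotated with its symbol alone had a value on at least 1 array of each transfectant, which 40 of the 60 met, against 5312 of 6043 annotated genes overall. Of the 40, 37 had a clone measured on all 4 arrays. RFC3, PRIM1 and CENPF lacked E22A array 2 and were described apart. AURKB, PCNA and RFC2 had values in E22A alone, and FEN1, E2F1, CDC25A and PLK4 had no value on any array. CCNE2 was represented by clones that also carry another symbol. The other 12, among them ORC1 to ORC5, MCM2, CDT1 and CCNB1, were not analysed here because the annotation used names no clone for them.

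Cells copy their DNA once per cycle by a relay that is well understood. CDC6 and CDT1 load the MCM helicase at origins bound by ORC, and CDC7 and the S phase cyclin-dependent kinases then fire them. Polymerase alpha with primase starts each strand, RFC loads the PCNA clamp, and ribonucleotide reductase and thymidylate synthase supply nucleotides. CHEK1 and WEE1 restrain CDK1 until replication is complete, CDC25 phosphatases release it, and the spindle checkpoint holds the anaphase-promoting complex until chromosomes are attached. Most of these genes are transcribed in waves, replication genes at G1/S under E2F and mitotic genes in G2.

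MDCK is an epithelial line from dog kidney. The groups were E22A, E22B and MDCK-CMV, which the labels name as transfectants and control, grown in DMEM with fetal bovine serum. On E22B array 2 the control is called MDCK-CONTROL. RNA was amplified before labelling. E22A and E22B were read as the A and B forms of E2-2 (TCF4), a basic helix-loop-helix factor, and the series asks how such factors regulate E-cadherin. The design text calls each transfectant a clone, and what promoter drives the transgene is not stated there or in the labels. Each transfectant is 1 biological sample on 2 arrays, described as a dye swap, so every SD below is technical and no test was possible within a transfectant. The control RNA lay on every array. In bulk RNA, a change in the share of cycling cells and a change in RNA per cycling cell cannot be told apart.

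Values are log2 ratios of the dyes, and the base of the logarithm is an assumption. Spots with a value numbered from 22360 to 23136 per array, and duplicate spots correlated at 0.901 to 0.981. For E22B array 1, E22B array 2 and E22A array 2 the title and the channel dyes give 1 orientation, and these 3 arrays were turned to it. On E22A array 2 the labels describe the control extract alone, so the transfectant is taken to be in the other channel. The title of E22A array 1 spells the transfectant EE2A, which was read as E22A. For this array the labels conflict, the title naming Cy5 and the channel labels Cy3 for the transfectant. With array 1 turned as its title says, the correlation between the E22A arrays was -0.371 over 8657 features, below the limit of -0.3 used for arrays of one kind. E22A array 1 is therefore given with its deposited sign, and every E22A mean is given under the title and again under the channel labels. No source says which dye is the numerator, so positive values are called the CDH1 side, where E-cadherin lies on the 3 agreed arrays (1.08 and 0.79 in E22B, 1.13 in E22A array 2). On E22A array 1 CDH1 had a deposited value of -0.90. With Cy5 in the numerator that side would mean more RNA in the transfectant, with Cy3 less. The first would oppose the repression of E-cadherin known for E2-2. TCF4 itself stood at 0.27 and 0.08 with its deposited sign on the E22B arrays of opposite dye. Whether its clones cover the transgene is not given, so it checks neither the labels nor the direction. Levels of kidney epithelial markers cannot be read from ratios, so the cell type was not checked. In E22B the epithelial markers EPCAM, KRT8 and CDH16 had ratios of 1.04 ± 2.16, -0.39 ± 0.50 and 0.02 ± 0.01, the mesenchymal FN1 -1.72 ± 0.51, and the leukocyte genes PTPRC and CD68 0.22 ± 0.23 and -0.18 ± 0.08 (SD, n = 2 arrays). FN1 lay opposite to CDH1 on the 3 agreed arrays, and its part in the values below was not tested. With the deposited sign, CDH1 (-0.90 and -1.13) and FN1 (2.68 and 1.89) kept their sign between the E22A arrays. EPCAM (-2.57 and 0.17) and KRT8 (0.44 and -0.25) did not, nor did CDH16, PTPRC and CD68. The channel labels thus put CDH1 and FN1 each on 1 side of both E22A arrays, and the titles on opposite sides. Which reading holds was not tested.

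In E22B, members lay more often on the CDH1 side than features in general. Of the 37, 21 were on that side on both arrays (56.8%, where 34.8% of all 8657 features were), 3 were on the other side on both (against 35.6%), and 13 changed side. The median of the 37 was 0.16, and that of all features -0.002188. By array the members' median was 0.09 on array 1 and 0.29 on array 2. The mean of the pair cancels a gene's dye effect. That dye part, the mean of both E22B values with the deposited sign, had a median of 0.16 over the members and of 0.0105 over all features. It moves with the larger value on array 2, and its part in the single-array values was not tested. At 1.5-fold or more on both arrays, a log2 limit of 0.585, stood 4 members on the CDH1 side (10.8%, where 2.52% of all features met it) and 0 on the other (0.543%). The 4 were CDC6, CHEK1, MAD2L1 and MCM4. At 2-fold 2 remained, CDC6 and MAD2L1, where the share of all features was 0.52%. On the other side on both arrays were TYMS (by its 1 complete clone), WEE1 and MKI67. With E22A array 2 added, 16 of the 37 were on the CDH1 side on all 3 agreed arrays (43.2%, where 21.4% of all features were). On the other side were 2, TYMS and WEE1 (5.41%, where 20.2% of all features were). At 1.5-fold or more on the CDH1 side of all 3 stood 3 of the 37, CDC6, CHEK1 and MCM4, where 113 of 8657 features did. These shares describe the list, and no test of the list was made.

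**Figure D1:**
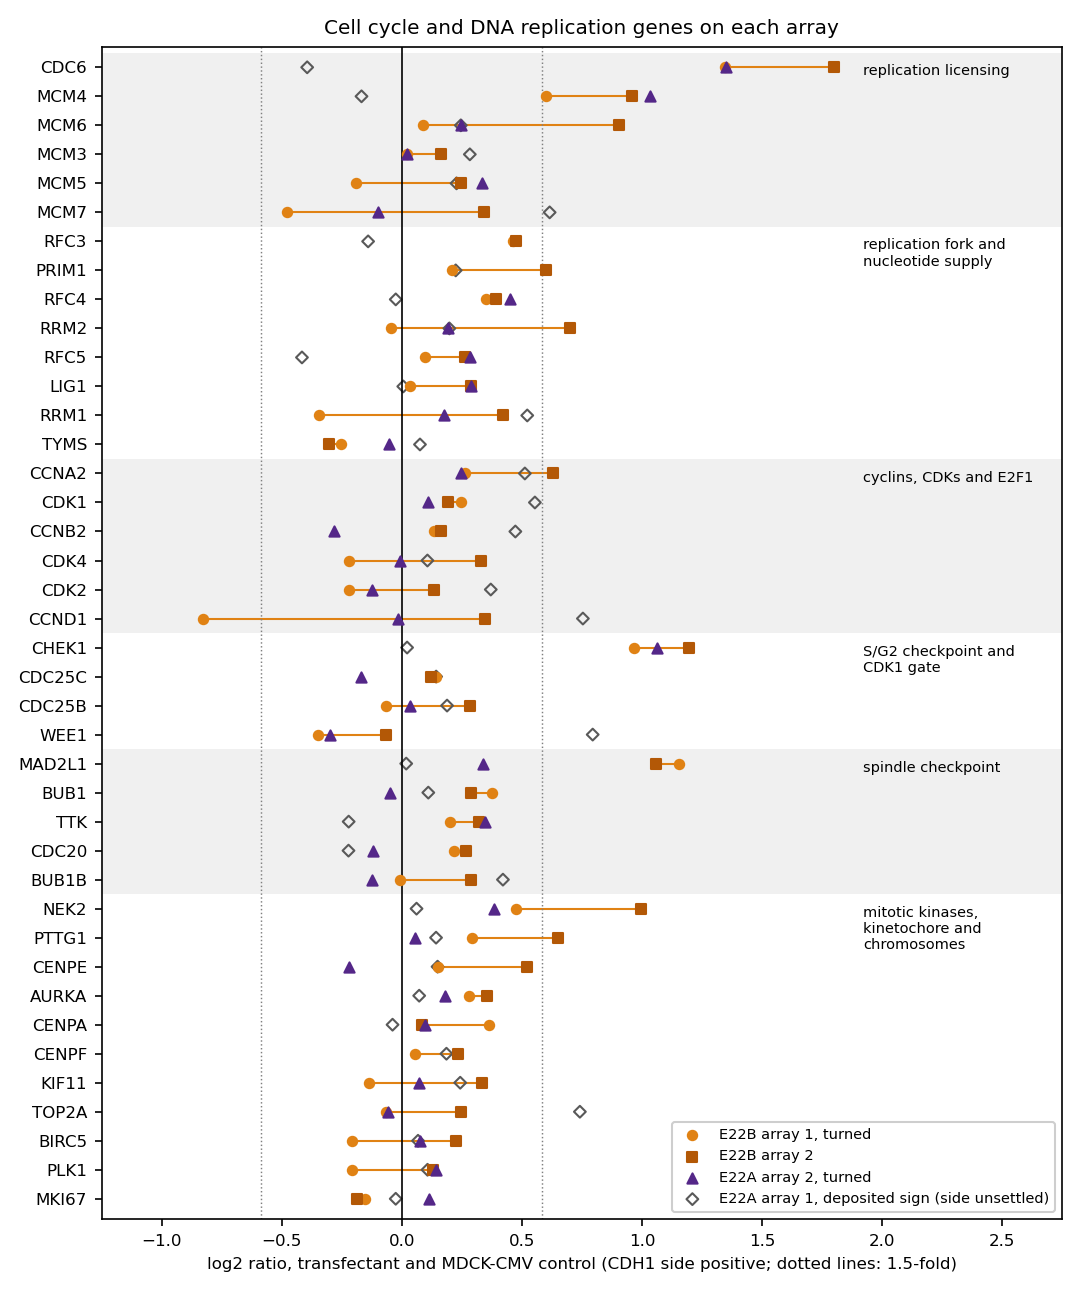
Each row is 1 of the 40 genes, grouped by role, and the horizontal axis is the log2 ratio. Filled symbols are the 3 arrays whose labels agree, with the CDH1 side positive, and the bar joins the E22B arrays. The open diamond is E22A array 1 with its deposited sign, under which CDH1 itself is at -0.90, so positive is not the CDH1 side for it. CDC6, MCM4 and CHEK1 stand beyond the 1.5-fold line on the CDH1 side of all 3 agreed arrays, where 113 of all 8657 features do. MAD2L1 stands beyond it on both E22B arrays, with 0.34 on E22A array 2.

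Origin licensing held the member farthest from 0. CDC6, the loader of the MCM helicase, stood at 1.35 and 1.80 on the E22B arrays, at 1.35 on E22A array 2 and at -0.39 with the deposited sign on E22A array 1. Its E22B mean was 1.57 ± 0.32 (log2, SD, n = 2 arrays), a 2.98-fold ratio. MCM4, a helicase subunit, stood at 0.60 and 0.96 in E22B, 1.03 on E22A array 2 and -0.17 on E22A array 1. For both genes the agreed arrays do not overlap 0, while E22A array 1 was the smallest value in size. The other subunits of the same ring stood nearer to 0. MCM6 was at 0.09 and 0.90 in E22B (0.50 ± 0.58) and at 0.25 on E22A array 2, so its E22B arrays differed by more than their mean. MCM3 was at 0.02 and 0.16, MCM5 at -0.19 and 0.25, and MCM7 at -0.48 and 0.34, both of the last changing side between the E22B arrays. CDC6 and MCM4 rest on 1 clone each, as do CHEK1, MAD2L1 and NEK2, and on cDNA clones signal shared between MCM paralogs cannot be told apart.

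At the replication fork the values were smaller. RFC4, a subunit of the clamp loader, stood at 0.35 and 0.39 in E22B (0.37 ± 0.03) and at 0.45 on E22A array 2. RFC3, another subunit, stood at 0.46 and 0.48 in E22B and lacked E22A array 2. RFC5 was at 0.10 and 0.26, with 0.29 on E22A array 2. The gene values of these 3 subunits were on the CDH1 side on every agreed array with a value. RFC2, a further subunit, was measured on E22A array 2 alone, at 0.13. An RFC4 clone outside the gene value, since it lacked E22B array 2, stood at -0.03 on E22A array 2. PRIM1, the catalytic primase subunit, stood at 0.21 and 0.60, and LIG1, the ligase of Okazaki fragments, at 0.03 and 0.29 with 0.29 on E22A array 2. Of the enzymes of nucleotide supply, RRM1 changed side between the E22B arrays (-0.34 and 0.42), and RRM2 stood at -0.05 and 0.70. TYMS, thymidylate synthase, lay opposite to the clamp loader at -0.25 and -0.30 (-0.28 ± 0.04) with -0.05 on E22A array 2. A further TYMS clone of another cDNA, without E22A array 2, lay on the CDH1 side with an E22B mean of 0.08. It moves the gene's E22B mean to -0.10, so both the side and the size of the TYMS value depend on the clone.

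The cyclins and their kinases had an E22B median of 0.10, with CCNA2 the farthest from 0 of the group's means. CCNA2, the cyclin of S phase and G2, stood at 0.26 and 0.63 in E22B (0.45 ± 0.26) and at 0.25 on E22A array 2. On that array its clone of one cDNA stood at 0.74 and those of the other from 0.03 to 0.12. CDK1, the mitotic kinase partner of CCNA2, stood at 0.24 and 0.19 (0.22 ± 0.04), with 0.11 on E22A array 2. There its clones stood at -0.13, 0.16 and 0.29. CCNB2, a mitotic cyclin, was at 0.13 and 0.16 in E22B but at -0.28 on E22A array 2. CCND1, the cyclin D of G1, and CDK2 and CDK4 each changed side between the E22B arrays. CCND1 did so most widely, at -0.83 and 0.35, with a dye part of 0.59. On E22A array 1 all 6 had a positive deposited sign, from 0.11 for CDK4 to 0.75 for CCND1, as did 29 of all 37 members and 51.1% of all features.

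Among the genes that gate entry into mitosis, CHEK1 stood apart. CHEK1, the kinase that acts when replication stalls, was at 0.97 and 1.20 in E22B (1.08 ± 0.16, 2.11-fold) and at 1.06 on E22A array 2, but at 0.02 on E22A array 1. WEE1, the kinase that inhibits CDK1, lay on the other side of 0 at -0.35 and -0.07 in E22B and -0.30 on E22A array 2. The phosphatases that oppose WEE1 were near 0. CDC25C stood at 0.14 and 0.12 in E22B and -0.17 on E22A array 2, and CDC25B at -0.07 and 0.28 with 0.03. With 4 genes measured, the S/G2 group had an E22B median of 0.12, far below CHEK1.

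MAD2L1 stood farthest from 0 among the spindle checkpoint genes. MAD2L1, which inhibits the anaphase-promoting complex, stood at 1.16 and 1.06 in E22B (1.11 ± 0.07, 2.16-fold). BUB1, a kinetochore kinase, was at 0.38 and 0.29, TTK, which recruits the checkpoint, at 0.20 and 0.32, and CDC20, the activator that MAD2 captures, at 0.22 and 0.27. These 4 of the 5 measured genes were on the CDH1 side on both E22B arrays, and BUB1B was at -0.0061 and 0.29. On E22A array 2 the role divided. MAD2L1 (0.34) and TTK (0.35) lay on the CDH1 side, and BUB1 (-0.05), CDC20 (-0.12) and BUB1B (-0.13) on the other.

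Of the mitotic kinases and chromosome proteins, NEK2, a centrosomal kinase, was farthest from 0 at 0.48 and 1.00 in E22B (0.74 ± 0.37) and 0.39 on E22A array 2. It missed the 1.5-fold limit on E22B array 1. PTTG1, securin, stood at 0.29 and 0.65 (0.47 ± 0.25), and AURKA, the kinase of spindle poles, at 0.28 and 0.36 (0.32 ± 0.05). CENPE, a kinetochore motor, was at 0.15 and 0.52 in E22B and -0.22 on E22A array 2. The other 7 genes of this role had E22B means from -0.17 to 0.22. MKI67 was at -0.15 and -0.19 in E22B (-0.17 ± 0.02), TOP2A at -0.07 and 0.25, BIRC5 at -0.21 and 0.23, and PLK1 at -0.21 and 0.13. CENPF, which lacked E22A array 2, was at 0.05 and 0.24, KIF11 at -0.14 and 0.33, and CENPA at 0.36 and 0.08.

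**Figure D2:**
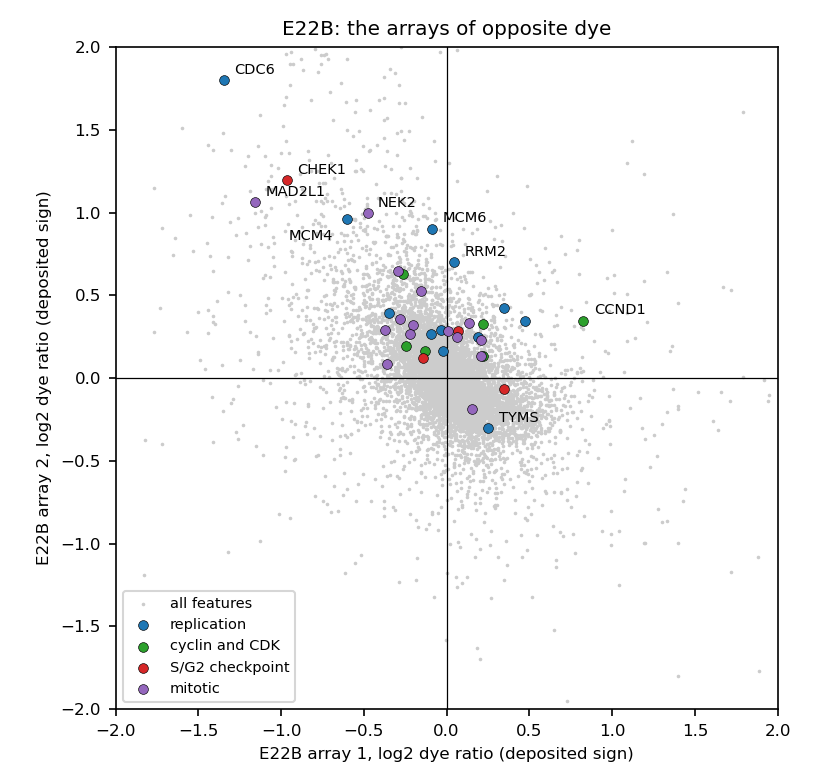
E22B array 1 (horizontal) against E22B array 2 (vertical) as log2 dye ratios with their deposited signs; grey points are all 8657 features, of which 89 lie beyond the axes at 2, and coloured points are the 37 genes by class. Because the dyes were exchanged, a gene whose ratio between transfectant and control is larger than its dye part lies upper left or lower right. In the upper left lie 21 genes (34.8% of all features), with CDC6 at -1.35 and 1.80, and in the lower right 3 (35.6% of all features). A place in these quadrants was not tested as a difference.

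Clones of the same gene gave a check within the arrays. Among the 37, 17 genes had more than 1 complete clone, and in 6 of them clones lay on both sides of 0 in E22B. The same share over all genes with several clones is not given, so this count cannot be read as particular to the members. The 4 AURKA clones, all of 1 cDNA, ranged from 0.13 to 0.45. The 4 CCNA2 clones ranged from 0.33 to 0.53, and the 3 RFC4 clones from 0.20 to 0.48, so these genes kept 1 side in E22B on every complete clone. CENPA did not. Its 2 clones of one cDNA stood at 0.52 and 0.71 and a clone of another cDNA at -0.57, so the gene mean of 0.22 ± 0.20 describes none of them. RRM2, the small subunit of ribonucleotide reductase, had a clone of one cDNA at 0.92, 2 clones of another at 0.49 each, and 2 of the third at -0.12 and -0.14. CCND1 ranged from -0.57 to 0.11, MCM5 from -0.30 to 0.21, BIRC5 from -0.11 to 0.13 and CDC25B from -0.05 to 0.21. Duplicate spots of the members' clones differed by a median of 0.0217 on E22B array 1 and 0.0272 on array 2.

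**Figure D3:**
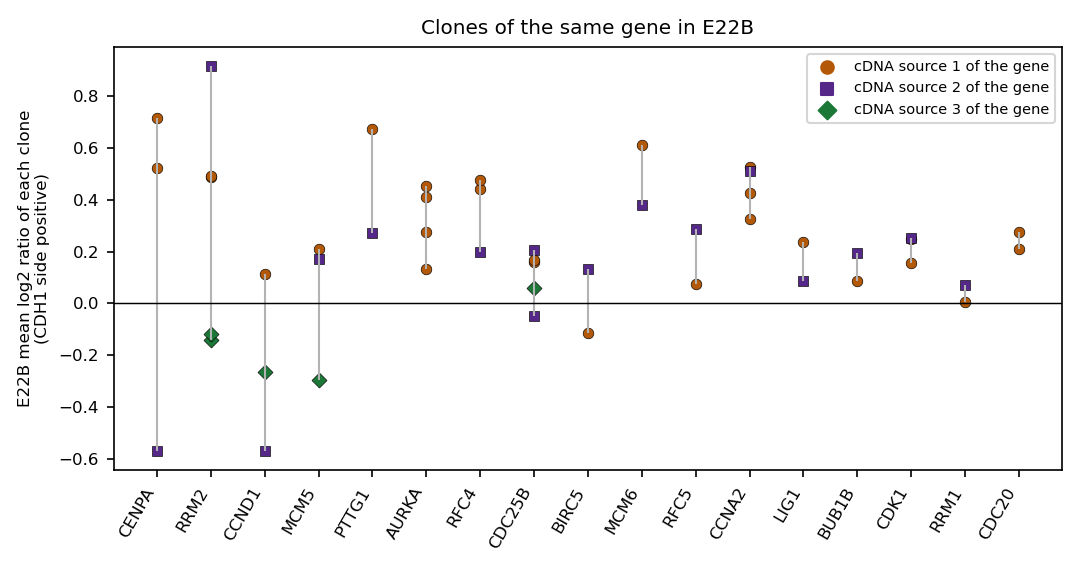
Each symbol is the E22B mean log2 ratio of 1 clone (CDH1 side positive) for the 17 genes with more than 1 complete clone, with a different symbol for each cDNA of a gene, ordered by range. CENPA and RRM2 have the widest ranges, 1.28 and 1.06, and in both the cDNAs lie on opposite sides of 0.

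In E22A the array whose labels agree is array 2. There 24 of the 37 were on the CDH1 side (64.9%, where 49.1% of all features were), and the members' median was 0.09 against -0.00635 for all features. At 1.5-fold or more on that single array stood 3 members on the CDH1 side (8.11%, where 4.52% of all features met it) and 0 on the other (2.37%). The 3 were CDC6, CHEK1 and MCM4. By class, 10 of 12 replication genes and 10 of 15 mitotic genes lay on the CDH1 side of this array, with 2 of 6 cyclin and kinase genes and 2 of 4 S/G2 genes. The class medians were 0.27, 0.08, -0.01 and -0.07 in that order. In E22B the class medians were 0.17 for replication, 0.24 for mitotic genes, 0.10 for cyclins and kinases and 0.12 for S/G2. The order of the first pair turned in E22B with incomplete features kept (0.25 and 0.23) and on E22B array 2 alone (0.37 and 0.29). The comparisons share the control RNA, and E22A array 2 carries any dye effect of a gene.

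The members farthest from 0 on E22A array 1 were not those of array 2. Over the 37 members the deposited values of the E22A arrays still correlated at 0.542, against 0.371 over all 8657 features, a description across genes of arrays that share their RNA. With the deposited sign, 29 of the 37 were positive on array 1 (78.4%, where 51.1% of all features were). At 1.5-fold or more stood 4 members on the positive side (10.8%, where 2.74% of all features did) and 0 on the negative (3.77%). The 4 were WEE1 (0.80), CCND1 (0.75), TOP2A (0.74) and MCM7 (0.62). On E22A array 2 these stood at 0.30, 0.01, 0.06 and 0.10 with the deposited sign, under 1.5-fold each. Their dye parts in E22B were 0.14, 0.59, 0.16 and 0.41, where the members' median was 0.16 and that of all features 0.0105. On a single array a dye effect and a difference in expression cannot be told apart. Beyond 2-fold on the CDH1 side of E22A array 2 were CDC6, CHEK1 and MCM4 (8.11% of the members, where 1.51% of all features were). On array 1 these genes were at -0.39, 0.02 and -0.17 with the deposited sign. The members past 1.5-fold thus differed between the E22A arrays, whichever way array 1 is turned.

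**Figure D4:**
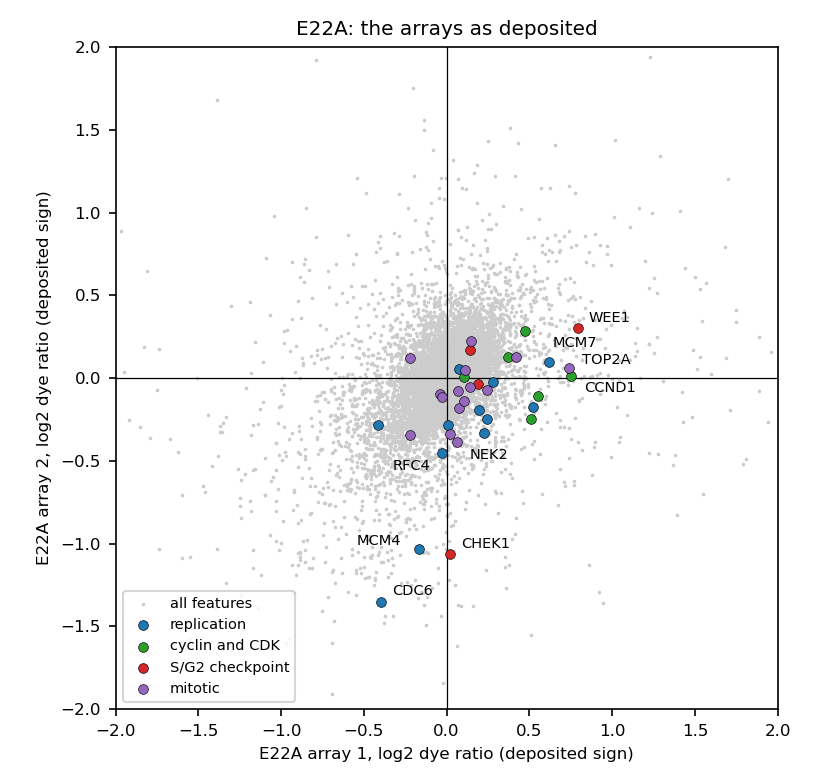
E22A array 1 (horizontal) against E22A array 2 (vertical) as log2 dye ratios with their deposited signs; grey points are all 8657 features, of which 41 lie beyond the axes at 2, and coloured points are the 37 genes by class. WEE1, TOP2A, CCND1 and MCM7 lie far out on array 1 alone, and CDC6, CHEK1 and MCM4 far out on array 2 alone.

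The E22A means follow from how array 1 is turned. By the titles 17 of the 37 were on the CDH1 side on both arrays (45.9%, where 16.3% of all features were) and 1, CDC20, on the other (16.1%). By the channel labels 7 were on the CDH1 side (18.9%, background 32.7%) and 12 on the other (background 34.8%). No member was at 1.5-fold on both E22A arrays in either reading, where 0.127% and 0.196% of all features were on the CDH1 side and the other side by the titles, and 1.33% and 0.578% by the channel labels. The class medians of E22A were 0.23 (replication), 0.23 (cyclins and kinases), 0.18 (S/G2) and 0.10 (mitotic) by the titles. They were 0.03, -0.24, -0.12 and 0.02 by the channel labels. All features had a median of 0.00211 and -0.00854. The direction of the cyclin and kinase class in E22A therefore depends on the label believed, and its arrays stood at 0.49 and 0.01 with the deposited sign. By the channel labels both E22A arrays carry the transfectant in the same dye, so those means keep any dye effect of a gene. With the dye part of E22B subtracted, the channel-label medians were 0.27 (replication), -0.01 (cyclins and kinases), -0.03 (S/G2) and 0.09 (mitotic). The part of the dye in these medians was not tested. CDC6 stood at 0.48 ± 1.23 under the titles and 0.87 ± 0.68 under the channel labels (n = 2 arrays), CHEK1 at 0.54 ± 0.74 and 0.52 ± 0.77, and MCM4 at 0.43 ± 0.85 and 0.60 ± 0.61. CDC6 under the channel labels was the 1 of these means above its SD between arrays.

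**Figure D5:**
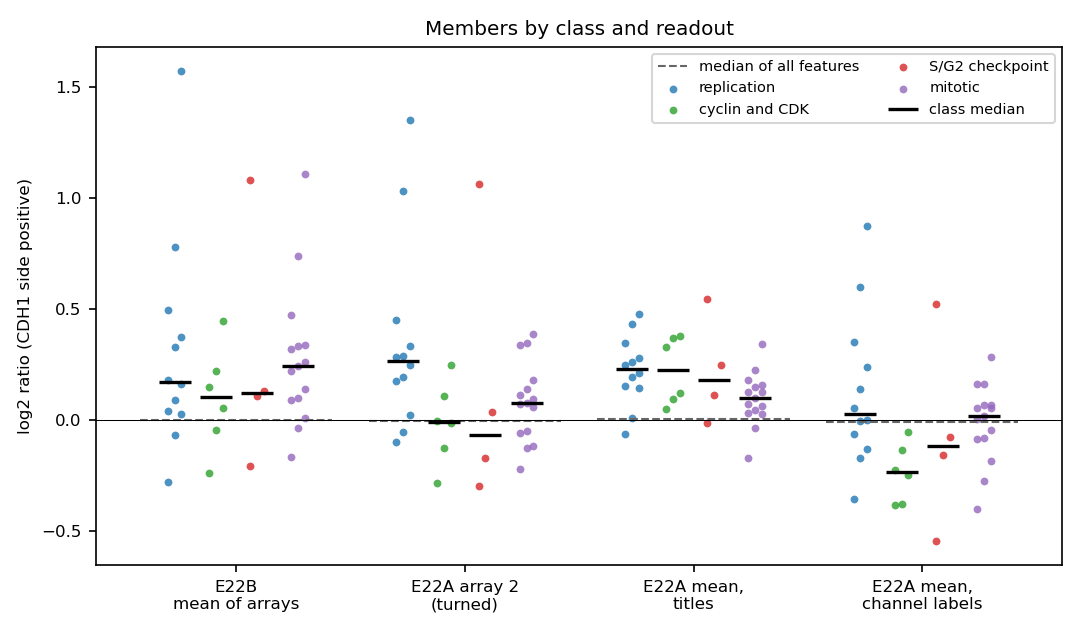
Log2 ratios (CDH1 side positive) of the 37 genes in 4 readouts, coloured by class, with class medians as black bars and the median of all 8657 features as a dashed line. In E22B all 4 class medians lie above 0, from 0.10 to 0.24, and in E22A they lie from 0.10 to 0.23 under the titles and from -0.24 to 0.03 under the channel labels.

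Taking E22A and E22B, which carry different forms, as replicates of E2-2 transfection, the log2 ratios were tested against 0 over all features with limma and Benjamini-Hochberg adjustment at 0.05. By the titles 0 of the 37 members passed, as did 0 of 8657 features (0%), and 5 members had an unadjusted p under 0.05 (MCM4, MCM6, CDC6, CCNA2 and CHEK1, 13.5%, where 3.27% of all features had one). By the channel labels 0 members passed, where 0.0116% of all features did, and 7 had an unadjusted p under 0.05 (18.9%, background 13.4%). These were MCM4, CDC6, RFC4, CHEK1 and TTK on the CDH1 side and CCND1 and WEE1 on the other. By the titles RFC4, TTK, CCND1 and WEE1 had an unadjusted p of 0.051, 0.21, 0.75 and 0.90 in limma. By the channel labels the E22A mean keeps any dye effect of a gene, which the E22B mean cancels. The dye parts in E22B were 0.59 for CCND1, 0.14 for WEE1, and from 0.02 (RFC4) to 0.23 (CDC6) for those on the CDH1 side. MCM4 had the smallest adjusted p by the channel labels, 0.106 in limma at a pooled log2 ratio of 0.69 (SE 0.10), followed by CDC6 with 0.114 at 1.22 (SE 0.19). CHEK1 stood at 0.80 (SE 0.16, adjusted p = 0.164 in limma) and MAD2L1 at 0.63 (SE 0.25, adjusted p = 0.408). By the titles each of these 4 had an adjusted p of 0.982 in limma. The fit has 1 residual degree of freedom beside the information shared over features, and it leaves out the spread of the control.

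E22A and E22B were also set against each other through the control, with 1 sample each and no test. A difference of 1.5-fold or more between their means, with no overlap between arrays, was met by 1 member, MAD2L1, in either reading. Its E22A mean lay 0.93 below E22B under the titles and 0.95 below under the channel labels. That is 2.70% of the members, where 3.82% and 2.74% of all features lay below in this way, so the count of members is at the background. On the side above E22B stood 0 members, with 1.63% and 2.17% of all features. At any size, both arrays of E22A lay opposite to both of E22B for 1 member by the titles (2.70%, background 12.4%) and for 5 by the channel labels (13.5%, background 16.4%). In E22A, MAD2L1 was at 0.18 ± 0.23 under the titles and 0.16 ± 0.25 under the channel labels, against 1.11 ± 0.07 in E22B (SD, n = 2 arrays each).

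Other genes of the pathway were drawn from 4 lists of 120 cell cycle genes outside the 60, of which 61 were measured on all arrays. In E22B, 33 of the 61 lay on the CDH1 side on both arrays (54.1%, background 34.8%) and 6 on the other (background 35.6%), with a median of 0.11. Replication and nucleotide genes (15 of 22, median 0.15) and cyclin, kinase and RB-E2F genes (11 of 17, median 0.17) lay there more often than mitotic genes (6 of 18, median 0.02) and checkpoint and repair genes (1 of 4, median -0.02), and the difference between lists was not tested. None of the 61 passed in limma in either reading. POLE2, a subunit of the leading strand polymerase, was the 1 gene of the 61 at 1.5-fold on both E22B arrays, at 1.05 and 0.73 (0.89 ± 0.22). On that side 2.52% of all features met the limit, so this count is not above the background. On E22A array 2 POLE2 stood at 0.03.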

How the data were processed

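The deposited values are log2 ratios of the dyes per spot. No label or file header records the image analysis, background correction, normalisation or numerator dye, and the log base is assumed from convention. Array medians lay between -0.00991 and 0.00294, so the authors' values were already centred. The table held 27648 spots of 13824 clones. In the platform annotation 8744 clones carry 1 symbol, 327 carry several and 4753 carry none, and all 60 listed symbols occur in the dog gene table. Clones are annotated with human genes and were read with canine RNA.

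The mean of duplicate spots was taken, array medians were set to 0, and clones with values on all 4 arrays were averaged by gene, which gave 8657 features. The pooled test used limma 3.58.1 in R 4.3.3 (lmFit, eBayes), tested on simulated data. Counts use 1.5-fold (log2 0.585) on both arrays. Role classes were replication (licensing, fork and nucleotide supply), cyclins and kinases, S/G2 checkpoint, and mitotic (spindle checkpoint, kinases and chromosomes). Any member with a value on an array of each transfectant could be named. Full values go to members at 1.5-fold on both arrays of a transfectant, to up to 4 per role with the largest E22B mean on 1 side of both arrays, and to members with clones on both sides of 0. Other pathway genes are named at 1.5-fold on both E22B arrays. Groupings outside this rule were chosen after values were seen. Members and lists were chosen with earlier results of these data known. The number of arrays limits the precision, and signal over background could not be weighed. Alternatives covered orientation, centring, scaling, duplicate spots, clones, incomplete features, each array left out, dye correction and a 2-fold limit.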

Additional observations from a re-analysis of the deposited data

Results flagged for a closer look

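For 6 genes both E22A arrays lay on one side of 0 and both E22B arrays on the other, in 1 of the 2 readings of E22A, and the difference was not tested. These are 1 of 37 members by the titles (2.70%, where 12.4% of all features did so) and 5 by the channel labels (13.5%, where 16.4% did), so neither count is above the background. By the titles this held for CDC20, at -0.17 in E22A and 0.24 in E22B, a difference of -0.414. By the channel labels it held for CCNB2 (-0.526, from -0.378 and 0.148), CENPE (-0.523, from -0.185 and 0.338), BUB1 (-0.412, from -0.0807 and 0.331) and CDC25C (-0.289, from -0.157 and 0.132). MKI67 differed the other way by the channel labels (0.238, from 0.0686 and -0.169). None of the 6 differed in this way in the other reading, and by the channel labels the E22A values keep any dye effect of the gene.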

How the results depend on the processing

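The 4 genes at 1.5-fold on both E22B arrays were CDC6, CHEK1, MAD2L1 and MCM4 under every reading, centring, scaling, spot and clone setting tried, with CENPA added when each clone was its own feature. With a 2-fold limit 2 were left. Leaving out 1 array gave 4 to 9, the 9 on E22B array 2 alone (without E22B replicate 1). For E22A the count of 0 became 2 with each clone as its own feature by the titles (0 by the channel labels), 1 by the channel labels with the dye part of E22B subtracted, and 0 to 4 with 1 array left out. Members differing between the transfectants numbered 8 with values read as channel 2 over channel 1, 7 with the E22A pair turned together, 2 with arrays scaled alike, 0 at a 2-fold limit and 1 to 11 with 1 array left out, all with E22A turned by the titles. By the channel labels they numbered 3 with arrays scaled alike, 2 with the median clone, 4 with each clone as its own feature and 1 to 14 with 1 array left out (14 without E22A replicate 2, 13 without E22B replicate 1). Apart from the 2-fold count in E22B, the shares of all features under these alternative settings are not given. The counts at a fold limit therefore cannot be read against a background here. In limma, 0 members passed in every setting but 1: by the channel labels with the dye part subtracted, CDC6 and MCM4 passed (2 members, 124 of 8657 features, 1.43%), and there the E22B arrays enter both transfectants' values. Among the other settings the smallest adjusted p of a member was 0.0536 (CDC6, channel labels without E22B replicate 2), and without E22A replicate 1 it was 0.0796 (CDC6).

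The E22A class medians moved with the reading. Replication stood at 0.02622 by the channel labels, -0.2297 with channel 2 over channel 1 and -0.02622 with the pair turned. The cyclin class stood at -0.2356 by the channel labels and -0.2268 with channel 2 over channel 1, and S/G2 at -0.1169 and -0.1797. The mitotic class stood at 0.01682 by the channel labels, -0.0993 with channel 2 over channel 1 and -0.01682 with the pair turned. It stood at 0.1097 with arrays scaled alike and 0.1115 with incomplete features. By the channel labels with the dye part subtracted, the medians were 0.27 (replication), -0.009774 (cyclins), -0.03401 (S/G2) and 0.09164 (mitotic). With 1 array left out, the E22A medians by the titles ranged from 0.102 to 0.266 (replication), -0.03557 to 0.4927 (cyclins), -0.06826 to 0.1797 (S/G2) and 0.07545 to 0.0993 (mitotic). By the channel labels without E22A replicate 2 they were -0.102, -0.4927, -0.1656 and -0.0896, since array 1 is then turned the other way. In E22B the medians ranged from 0.02694 to 0.3681, -0.04393 to 0.2612, 0.03736 to 0.2032 and 0.2008 to 0.2876. The cause of these shifts was not tested. Each ratio already sets a transfectant against the control on the same array. No further pairing was made, because the labels give no replicate numbers and the arrays of a transfectant are technical repeats.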
